A study of Mus musculus with 6 samples.

Results

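Interferon-stimulated genes were examined in the livers of male mice that lacked Elovl6 in the liver. They are genes whose transcription rises when a cell is exposed to a type I or type II interferon. The 31 genes were taken from a list of genes that type I and type II interferons induce, and each was found on the array through the RefSeq accession of its probe. Of these, 29 matched at least 1 probe, out of 22911 genes with a probe, and 28 were bright enough to be tested, out of 14171 genes tested. Oas3 did not rise well above background on any array, and Mx1 and Mx2 matched no probe accession and were not analysed here. The study compared 3 mice with a liver-specific Elovl6 knockout (LKO) with 3 control mice, whose sample titles call them Flox. Elovl6 is the elongase that lengthens palmitate. All 6 received a high-sucrose diet, which drives fat synthesis in the liver, for 14 days, and food was withdrawn 4 hours before tissue was taken. The Cre line, the age of the mice and whether the groups were littermates are not given in the sources used here. One-colour Agilent arrays were used, 1 per mouse, and n is 3 mice in each group.

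Interferons are secreted proteins, and cells release the type I interferons after sensing foreign nucleic acid. Type I interferons act through the Ifnar receptor and the kinases Jak1 and Tyk2 to assemble a complex that holds Stat2 and Irf9 and binds the interferon-stimulated response element in promoters. Interferon gamma, the type II interferon, acts through the Ifngr receptor and leads to binding at the gamma-activated site. In liver, hepatocytes, Kupffer cells and endothelial cells all respond, and many of the genes keep a low level of expression without infection.

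The promoters of the members were searched for the elements named above. Since the list holds genes that interferons induce, such matches are not independent of how it was made. Promoter sequences, from 250 bases before to 50 bases after each annotated start, were taken from RefSeq (GRCm38.p6) and were found for 25 of the 31 genes. The core of the interferon-stimulated response element was searched on both strands as GAAA, any 2 bases, and GAAA, which reads TTTC, any 2 bases, and TTTC on the opposite strand. It lay in the promoters of 16 of the 25 genes (64.0%). Of all 27025 genes with a promoter, 3.99% held it, and of all 32851 promoters, 3.44%. The core of the gamma-activated site, TTCNNNGAA with N for any base, reads the same on both strands and lay in 5 of the 25 (20%), against 9.55% of all genes. Of the 25 matches of the response element core, 22 began upstream of the start and 20 of these lay within 150 bases of it. Of the 6 matches of the gamma-activated site core, 1, in Bst2, overlapped a response element match. The response element core lay in 11 of 19 genes induced mainly by type I interferon and in 5 of 6 induced by interferon gamma. For the gamma-activated site core the counts were 3 of 19 and 2 of 6. The stretches below show 5 genes of the first kind and 3 of the second, chosen after their values were seen. Only genes with the response element core upstream of the start are shown, so the stretches do not compare its frequency between the groups. Capitals mark the bases that match the response element core, and each sequence runs 5′ to 3′ on the strand of its gene.
Isg15: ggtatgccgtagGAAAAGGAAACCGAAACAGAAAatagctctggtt
Ifit1: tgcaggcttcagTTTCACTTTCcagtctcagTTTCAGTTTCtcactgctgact
Ifit3: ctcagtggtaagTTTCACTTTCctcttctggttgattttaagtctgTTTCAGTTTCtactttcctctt
Rsad2: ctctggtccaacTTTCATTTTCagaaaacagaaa
Oas1a: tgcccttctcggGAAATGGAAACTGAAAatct
Irgm1: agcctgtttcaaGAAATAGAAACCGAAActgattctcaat
Igtp: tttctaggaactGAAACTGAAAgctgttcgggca
Gbp3: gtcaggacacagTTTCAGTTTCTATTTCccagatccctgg

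The Isg15 stretch lies at chr4:156200863-156200908 on the minus strand and holds 3 overlapping matches, whose first bases lie at -78, -72 and -66 relative to the start. That of Ifit1 lies at chr19:34640773-34640825 and that of Ifit3 at chr19:34583361-34583428, both on the plus strand, with 2 separate matches each. Rsad2 has 1 match at chr12:26456551-26456584 on the minus strand. Oas1a (chr5:120907526-120907557, minus strand), Irgm1 (chr11:48871423-48871462, minus strand) and Gbp3 (chr3:142559987-142560026, plus strand) each have 2 overlapping matches. Igtp has 1 match at chr11:58199510-58199543 on the plus strand, and its stretch also holds a match of the gamma-activated site core, left in lower case, whose first base lies at -45. These coordinates are of GRCm38.p6, whereas the array headers name an earlier build. A match is a description of the letters, and no binding was measured here.

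**Figure D1:**
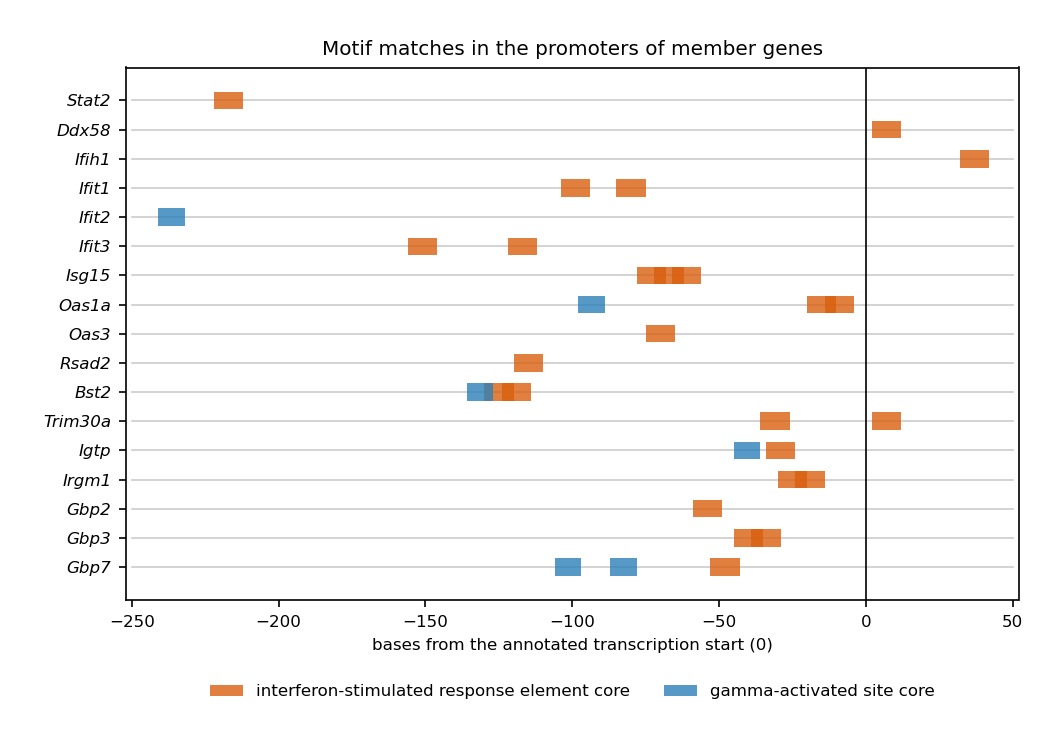
Positions of motif matches in the promoters of the member genes that held any, in bases from the annotated transcription start (0); orange bars are the response element core and blue bars the gamma-activated site core, drawn to scale, and both promoters of Trim30a share a line. Most orange bars lie within 150 bases upstream of the start.

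Between 52.1% and 56.6% of the 59305 spots on an array were well above background, no spot was saturated, and over the genes tested the arrays correlated pairwise between 0.987 and 0.993. Elovl6, the targeted gene, matched every label. Signals are given throughout as multiples of the array's own 75th percentile ("scaled signal"), and the levels of different genes are not compared because probes differ in brightness. For Elovl6 the scaled signals were 21.3, 43.0 and 22.8 in control mice 1, 2 and 3 and 0.228, 0.334 and 0.364 in LKO mice 1, 2 and 3, in that order here and below. It was 91-fold lower in LKO (log2 change -6.51 ± 0.30, SE, limma adjusted p = 0.00279). Whether the probe falls in the deleted stretch was not tested. All 6 hepatocyte markers (Alb, Apoa1, Ttr, Ambp, Fgb and Cyp2e1) were well above background on all 6 arrays.

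The question for this gene group is whether interferon-induced transcripts differ between LKO and control livers on a lipogenic diet. No member passed the test: 0 of 28 had a limma adjusted p under 0.05, against 2 of 14171 genes tested (0.0141%). Of these, 1 was higher and 1, Elovl6, was lower (0.00706% in each direction). At an unadjusted p under 0.05 there was 1 member, Oas2 (3.57%), against 11.2% of all genes tested. Values were higher in LKO for 13 members and lower for 15, where 50.8% of all genes were higher, and the median log2 change was -0.02 against 0.00 over all genes tested. The 22 members induced mainly by type I interferon had a median log2 change of 0.03, and the 6 associated with interferon gamma had one of -0.20, with 5 of 6 lower. For 26 of the 28 members the 95% interval of the difference lay within a 2-fold change in both directions, and for 15 within 1.5-fold. The exceptions to the 2-fold limit were Ifit2 (-0.90 to 1.23) and Oas2 (0.17 to 1.07). These counts depended on single mice: without LKO mouse 1, 20 members were higher with a median of 0.13, and without LKO mouse 2, 5 were higher with a median of -0.21. The count at an unadjusted p under 0.05 moved too: without LKO 2 it was 9 of 28 (32.1%) against 8.13% of all genes, and without LKO 1 it was 4 of 28 (14.3%) against 13.4%. The median of the interferon gamma members was -0.061 without control 1 and -0.32 without LKO 2. Since bulk liver was measured, fewer cells of a type and less RNA per cell cannot be told apart.

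**Figure D2:**
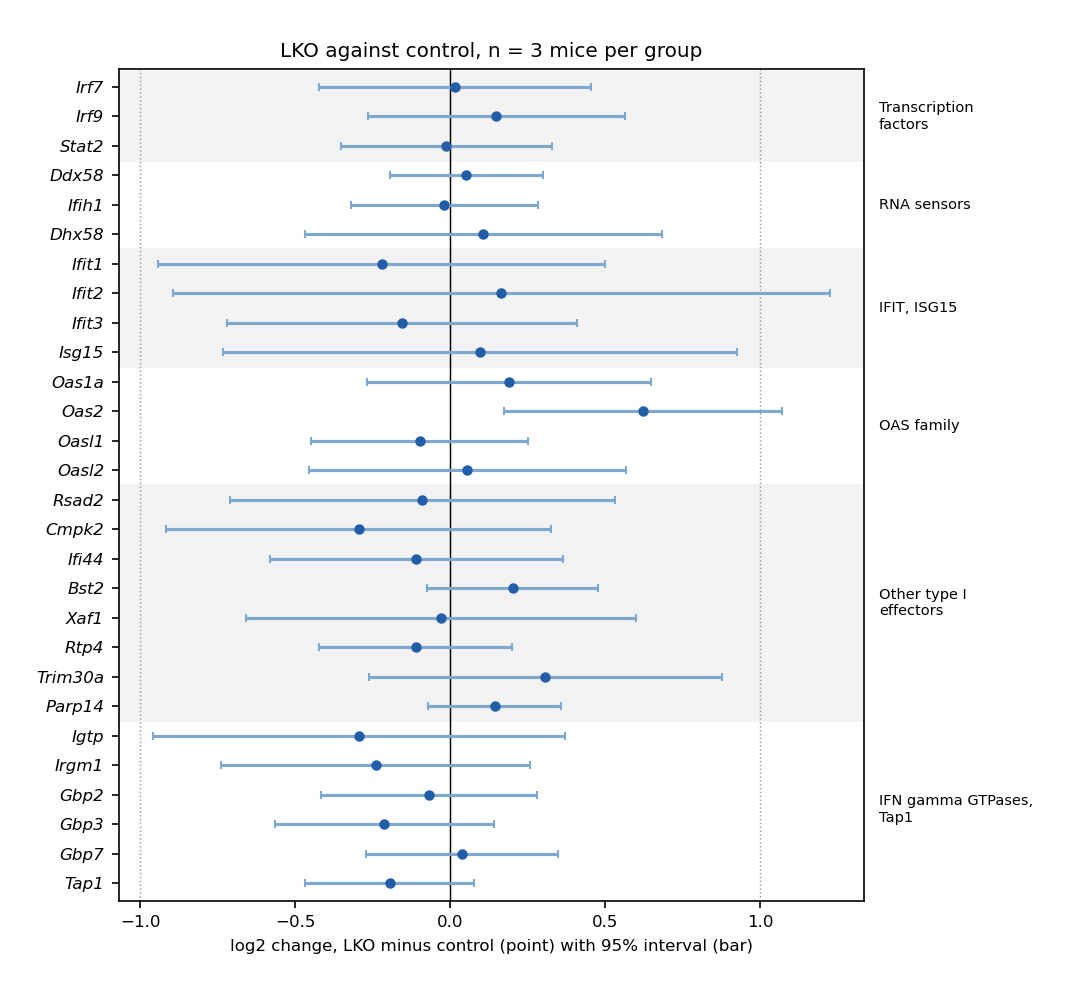
Log2 change in LKO against control (points) with 95% intervals (bars) for the 28 members tested, n = 3 mice per group, grouped by role; dotted lines mark a 2-fold change. Oas2 is the member whose interval does not include 0.

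For each transcription factor of the type I response the groups overlapped. Irf9, which provides DNA binding at the response element, had scaled signals of 5.95, 5.56 and 5.33 in controls and 4.85, 7.82 and 6.33 in LKO. LKO 2 and LKO 3 lay above all controls and LKO 1 lay below them, and the log2 change was 0.15 ± 0.17 (SE). Stat2, the signalling partner of Irf9, had 4.58, 4.33 and 4.06 in controls and 3.47, 4.77 and 4.73 in LKO, with a log2 change of -0.01 ± 0.14 (SE). Again LKO 1 was the lowest mouse and LKO 2 the highest. Irf7, which drives transcription of the interferon alpha genes, had a log2 change of 0.02 ± 0.18 (SE). Of the probes of Stat2, that used here gave -0.01 and a dimmer one 0.07, so the direction was not shared.

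The groups also overlapped for the 3 cytosolic RNA sensors. Ddx58, which encodes RIG-I, had scaled signals of 4.56, 4.48 and 4.15 in controls and 4.10, 5.04 and 4.57 in LKO (log2 change 0.05 ± 0.10, SE), and the mean of its probes had the opposite sign (-0.06). Dhx58, the gene of the regulatory sensor LGP2, had 0.979, 0.812 and 0.923 in controls and 0.785, 1.45 and 0.805 in LKO. LKO 2 stood above the other 5 mice and the other LKO mice lay below all controls, with a log2 change of 0.11 ± 0.24 (SE). Ifih1, which encodes MDA5, had a log2 change of -0.02 ± 0.13 (SE).

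The IFIT genes and Isg15 had the largest standard errors among the role groups, with a median of 0.32 on the log2 scale. Ifit1, whose protein binds foreign RNA and blocks its translation, had scaled signals of 0.626, 0.421 and 0.481 in controls and 0.337, 0.691 and 0.344 in LKO. LKO 2 was the highest of the 6 mice and both other LKO mice were below all controls (log2 change -0.22 ± 0.30, SE). Without LKO 2 the change was -0.56, and without LKO 1 it was -0.043. Ifit3, a partner of Ifit1, had 2.21, 1.99 and 1.94 in controls and 1.34, 2.64 and 1.74 in LKO (log2 change -0.16 ± 0.24, SE), with the same mice at the top and below the controls. Values of the other 2 genes were chosen for print after they were seen. Isg15, a ubiquitin-like modifier of proteins, had 11.3, 7.49 and 8.57 in controls and 6.41, 16.5 and 8.35 in LKO. Ifit2, related to Ifit1, had 0.182, 0.215 and 0.154 in controls and 0.111, 0.412 and 0.185 in LKO, so LKO 2 was the highest and LKO 1 the lowest of the 6 mice in both. Their log2 changes were 0.10 ± 0.35 and 0.16 ± 0.44 (SE).

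Within the OAS family, whose enzymes make oligoadenylates that activate RNase L, Oas2 had the smallest p of all members. Its scaled signals were 0.630, 0.806 and 0.539 in controls and 0.855, 0.962 and 1.21 in LKO. All 3 LKO mice lay above all 3 controls, a 1.54-fold higher mean (log2 change 0.62 ± 0.19, SE, limma adjusted p = 0.325). An exact two-sided permutation test gave p = 0.1, the smallest that 3 mice against 3 allow. Oas1a had 4.04, 4.85 and 3.62 in controls and 3.62, 5.61 and 5.18 in LKO, with groups that overlapped and a log2 change of 0.19 ± 0.19 (SE). The OAS-like genes Oasl1 and Oasl2 had log2 changes of -0.10 ± 0.15 and 0.05 ± 0.21 (SE). Oas2 passed in none of the 16 alternatives run and kept its sign in all, but its log2 change was 0.36 with the mean of all its probes and 0.40 with the slide column in the model. The other Oas2 probe did not rise well above background on any array, so the mean of the Oas2 probes includes a dim one. Oas1a has close relatives in its gene cluster, so its probe may also detect other copies.

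Among the remaining type I effectors, Bst2 and Parp14 had the smallest p. Bst2, which encodes tetherin, a protein that holds budding virus on the cell surface, had scaled signals of 37.1, 37.3 and 36.0 in controls and 39.0, 49.7 and 39.1 in LKO. The groups did not overlap, although LKO 1 and LKO 3 lay close above the controls and LKO 2 farther off, and the log2 change was 0.20 ± 0.12 (SE). Bst2 and Oas2 were the members whose groups did not overlap, 2 of 28 (7.14%), against 17.3% of all genes tested. Parp14, an ADP-ribosyltransferase, had 3.19, 3.35 and 3.35 in controls and 3.32, 3.80 and 3.82 in LKO, where LKO 1 lay inside the control range (log2 change 0.14 ± 0.09, SE). The others had log2 changes from -0.30 ± 0.26 (SE) for Cmpk2, a mitochondrial nucleotide kinase, to 0.31 ± 0.24 (SE) for Trim30a, a regulator of innate signalling. Between them lay Rtp4 (-0.11 ± 0.13), Ifi44 (-0.11 ± 0.20), Rsad2, which encodes the antiviral enzyme viperin (-0.09 ± 0.26), and Xaf1, a regulator of cell death (-0.03 ± 0.26), each log2 with SE.

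The members associated with interferon gamma had lower values in 5 of 6 cases, and 0 of 6 passed. Tap1, a subunit of the transporter that loads peptides for MHC class I, had scaled signals of 2.75, 2.66 and 2.55 in controls and 2.27, 2.67 and 2.05 in LKO. LKO 1 and LKO 3 lay below all controls and LKO 2 among them (log2 change -0.20 ± 0.11, SE). Gbp3, a guanylate-binding protein that acts on microbe-containing vacuoles, had 1.60, 1.65 and 1.39 in controls and 1.13, 1.62 and 1.29 in LKO, the same arrangement (log2 change -0.21 ± 0.15, SE). Gbp2 and Gbp7 of the same family had log2 changes of -0.07 ± 0.15 and 0.04 ± 0.13 (SE), and the family's genes resemble each other in sequence. Igtp and Irgm1 encode immunity-related GTPases and were chosen for print after their values were seen. Igtp had 12.7, 7.37 and 6.89 in controls and 6.43, 9.37 and 5.79 in LKO (log2 change -0.29 ± 0.28, SE), so control 1 was the highest mouse. Irgm1 had 7.77, 5.59 and 6.12 in controls and 5.07, 7.21 and 4.41 in LKO (log2 change -0.24 ± 0.21, SE), also with control 1 at the top. Control 1 was the highest of the 6 mice in 5 of these 6 genes and in 2 of the 22 type I members, against 24.4% of all genes. Among the 3 controls alone it was the highest in 17 of all 28 members, against 44.5% of all genes.

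The LKO mice also differed among themselves in these genes. The standard deviation among LKO mice was above that among controls in 26 of 28 members, against 51.2% of all genes, with median values of 0.35 and 0.15 on the log2 scale, where all genes had 0.13 in both groups. LKO 1 and LKO 2 were compared after the values were seen, as the mice most often lowest and highest among LKO. A high count in the members follows in part from that choice. LKO 2 was above LKO 1 in all 28 members tested, against 52.8% of all genes. This was not confined to the members, since LKO 2 was also above LKO 1 in 18 of 18 acute phase genes, with a median step of 0.52 on the log2 scale, and in 12 of 12 other sensors and adaptors. The standard deviation among LKO mice was above that among controls in 16 of the 18 acute phase genes too. The difference between these mice ran from 1.13-fold in Oas2 to 3.72-fold in Ifit2, with a median of 0.59 on the log2 scale, and it was at least 2-fold in 4 members (Ifit2, Isg15, Xaf1 and Ifit1), against 0.995% of all genes. LKO 2 was the highest of the 6 mice in 16 members (17.7% of all genes), and LKO 1 was the lowest in 21 (13.6% of all genes). Among the LKO mice alone, LKO 1 was the lowest in 24 members and LKO 2 the highest in 24, against 35.2% and 34.3% of all genes. The highest place of LKO 2 was held in 16 of 22 type I members and in 0 of 6 interferon gamma members. LKO 1 lay below all 3 controls in 25 members and LKO 2 above all 3 controls in 19, against 25.6% and 29.6% of all genes. LKO 3 was not uniform: it lay below the controls in 12 members, within their range in 7 and above them in 9. These are descriptions of single mice, since 1 mouse set against another allows no test, and the members share each mouse's liver and array.

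**Figure D3:**
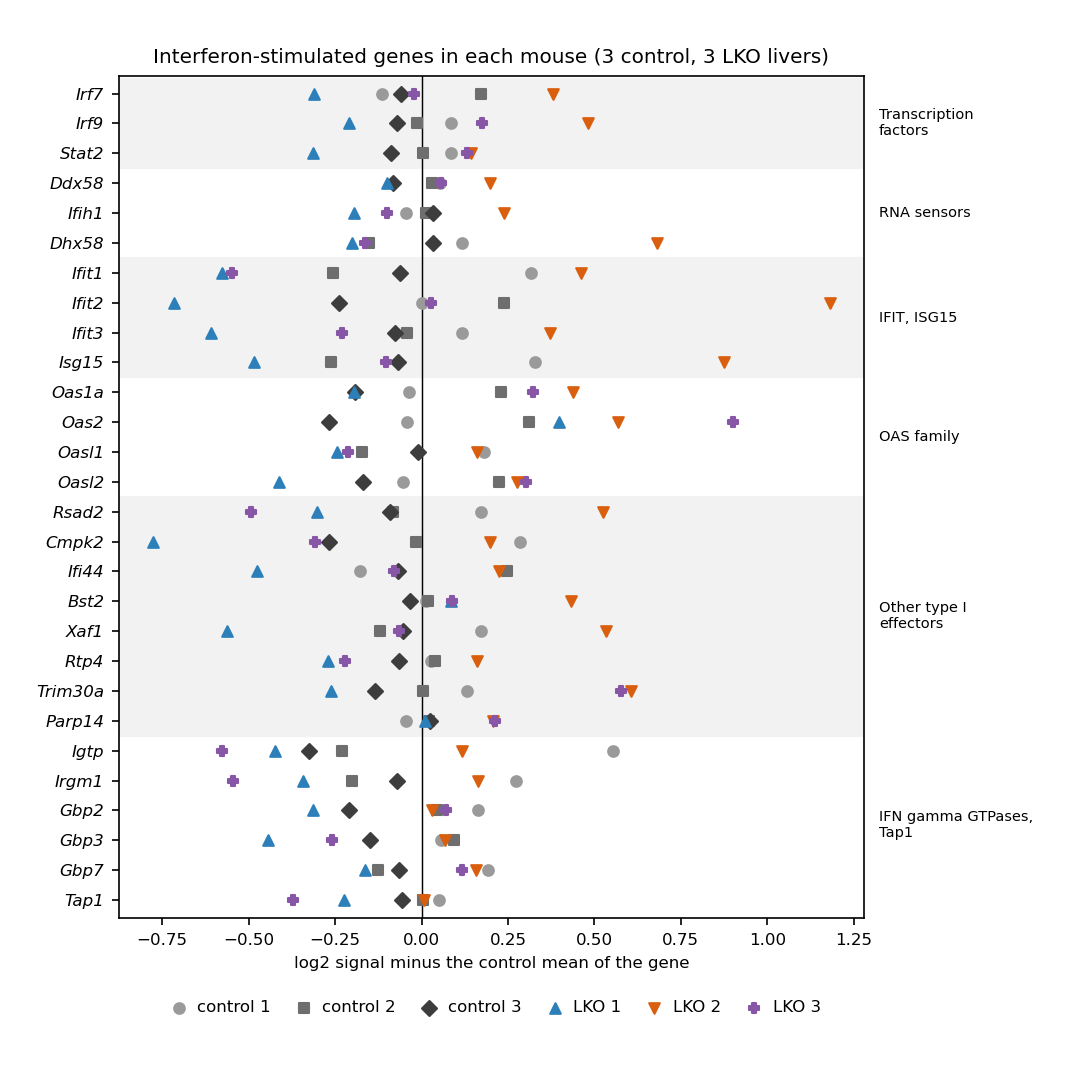
Log2 signal of each member in each of the 6 mice, relative to the mean of the 3 controls, grouped by role; grey symbols are controls and coloured symbols LKO mice. LKO 2 lies to the right of LKO 1 in all 28 rows, and the controls lie close together in most rows.

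By role, the step from LKO 1 to LKO 2 was widest for the IFIT genes and Isg15, with a median difference of 1.20 on the log2 scale. The other type I effectors had 0.76, the transcription factors 0.69, the OAS family 0.52, and the RNA sensors and the interferon gamma members 0.43 each. Relative to the control mean, the median over the type I members was -0.29 in LKO 1, 0.41 in LKO 2 and -0.04 in LKO 3, while the controls lay between -0.07 and 0.07. The interferon gamma members had -0.33, 0.09 and -0.32 in LKO 1, 2 and 3 and between -0.11 and 0.18 in the controls. Xaf1, chosen after its values were seen, shows the pattern in scaled signals of 0.829, 1.77 and 1.17 in LKO against 1.38, 1.12 and 1.18 in controls. For the 8 members with several probes above background on all 6 arrays, every such probe had LKO 2 above LKO 1. The arrays of LKO 2 and LKO 3 lay in another column of the slide than those of LKO 1 and the controls. In the step from LKO 1 to LKO 2, mouse and column therefore cannot be told apart. With the column as a covariate, a fit that sets LKO 1 alone against the controls, 3 members were higher and the median was -0.31.

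**Figure D4:**
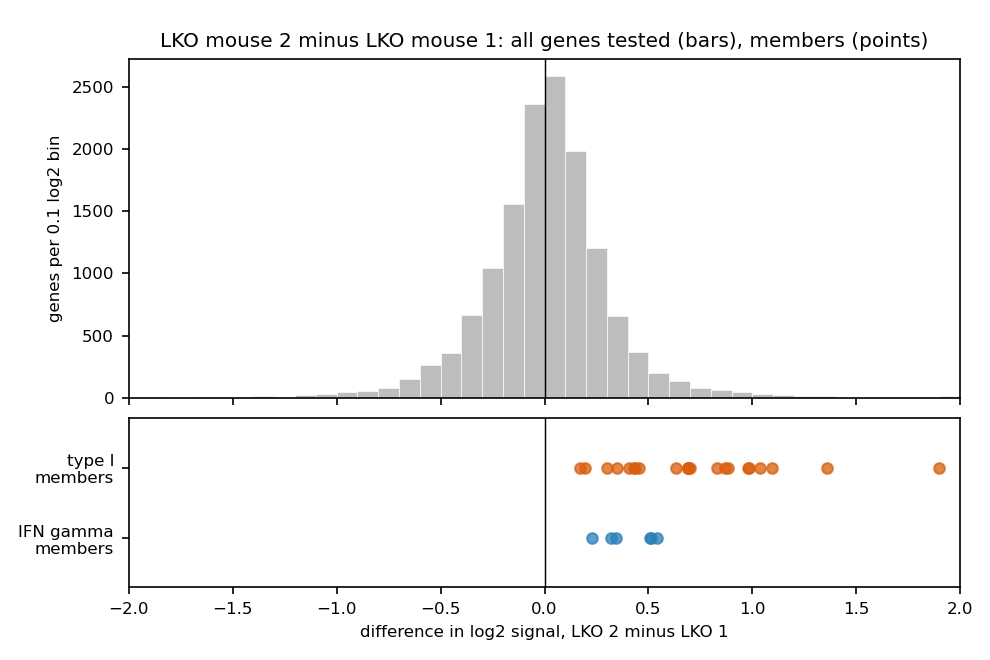
Difference in log2 signal between LKO 2 and LKO 1: grey bars count all 14171 genes tested in steps of 0.1 (genes beyond the axis are in the outermost bars), and points are the 22 type I members and the 6 interferon gamma members. All points lie to the right of 0, whereas the bars centre near 0.

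The response element core did not separate the members by this step. The 15 tested members with the core in the promoter had a median difference of 0.51 between LKO 2 and LKO 1 on the log2 scale, and the 9 with a promoter but no match had 0.69. LKO 2 was above LKO 1 in all genes of both sets. Among other genes tested, the 417 with the core had a median difference of 0.05 and LKO 2 was above LKO 1 in 59.5% of them, against 0.01 and 52.4% in the 10818 without it. The log2 change of LKO against control had a median of -0.02 in the members with the core and -0.03 in those without.

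Other genes of the interferon pathway gave no calls in LKO against control. Of 117 genes in lists of ligands, receptors, signalling, sensing, negative regulation and further induced genes, 108 were on the array and 94 were tested. With limma 0 of 94 passed in either direction, and 7 of 94 had an unadjusted p under 0.05, against 11.2% of all genes tested. The groups did not overlap for 11 of the 94, against 17.3% of all genes. Ligand transcripts were dim: Ifnb1 did not rise well above background on any array, and Ifng did so on 2 of 3 control and 1 of 3 LKO arrays. Of 10 ligands tested, 5 were higher, with Ifnk, an interferon best known from skin, at a log2 change of 0.41 ± 0.12 and Ifna7 at -0.66 ± 0.43 (SE). Ifnk was well above background on 2 of 3 control arrays, Ifna7 on 2 of 3 LKO arrays, and the interferon alpha genes are near-identical copies.

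All 5 tested receptor chains had higher values, and 0 passed. Ifngr2, a chain of the interferon gamma receptor, had a log2 change of 0.30 ± 0.11 (SE) with groups that did not overlap, and Ifnar2, a chain of the type I receptor, had 0.12 ± 0.09 (SE). Among the kinases and interferon regulatory factors, 0 passed. Irf2, which binds the response element, had groups that did not overlap (log2 change 0.51 ± 0.14, SE). Jak1 (0.18 ± 0.08) also had groups that did not overlap, and Irf5 (0.46 ± 0.21, SE) had groups that did.

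Among sensors and adaptors, 11 of 12 had higher values and 0 passed. Sting1, the adaptor for cytosolic DNA, had the smallest p, with scaled signals of 1.15, 1.20 and 1.14 in controls and 1.54, 1.72 and 1.91 in LKO. All 3 LKO mice lay above the controls, LKO 1 included (log2 change 0.56 ± 0.10, SE, limma adjusted p = 0.165). The groups of Tlr7, a sensor of RNA in endosomes, and of its adaptor Myd88 did not overlap either, at log2 changes of 0.20 ± 0.09 and 0.20 ± 0.10 (SE). Of 8 genes listed as negative regulators 4 were higher, and that list also holds Isg20, which encodes an antiviral exonuclease. Socs1, an inhibitor of JAK kinases, was lower without overlap (log2 change -0.46 ± 0.17, SE), while Trex1, a DNA exonuclease, had 0.17 ± 0.11 (SE).

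Among further interferon-induced genes that are not members, 0 passed. Of 31 others induced by type I interferon, 17 were higher with a median log2 change of 0.03. The smallest p belonged to Ms4a4c (0.31 ± 0.13) and Tor3a (-0.30 ± 0.14), and the groups did not overlap for Uba7, the activating enzyme for Isg15 (0.17 ± 0.09, SE). Of 19 others induced by interferon gamma, 6 were higher with a median of -0.10. The groups of Psmb10, an immunoproteasome subunit, did not overlap (0.31 ± 0.11, SE), nor did those of Tap2, the partner of Tap1 (0.14 ± 0.08, SE). The chemokine gene Cxcl9 had -0.43 ± 0.17 (SE). LKO 2 was above LKO 1 in 24 of the 31 and 15 of the 19, with a median difference of 0.24 on the log2 scale in each list and 0.59 in the members. It was also above LKO 1 in 12 of 12 sensors and adaptors (median 0.21), 7 of 8 genes listed as negative regulators (0.24), 4 of 5 receptors (0.18) and 4 of 10 ligands (-0.08).

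**Figure D5:**
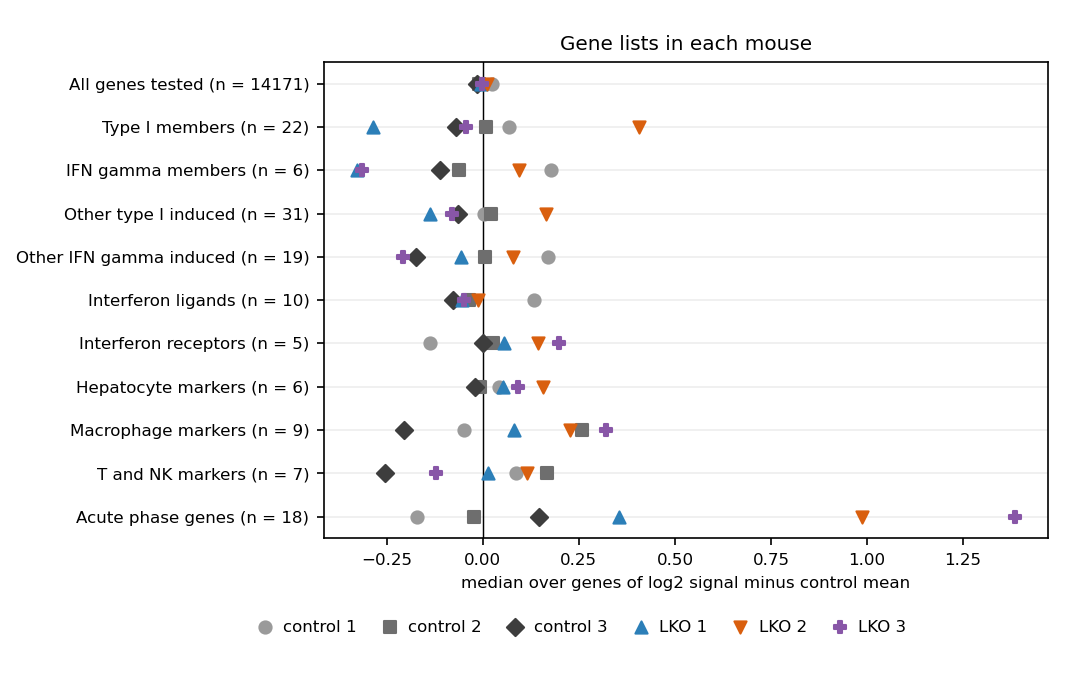
Median over the genes of a list of log2 signal relative to the control mean, for each of the 6 mice (grey symbols control, coloured symbols LKO); n is the number of genes tested in the list. Type I members spread from -0.29 in LKO 1 to 0.41 in LKO 2, and acute phase genes follow another order of the LKO mice.

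Markers of the cells that could carry these transcripts, and acute phase genes, were read in the same mice. Of 9 markers of Kupffer cells and macrophages, all well above background on every array, 9 had higher values in LKO and 0 passed. Set against the mean of the controls, their median stood at 0.08, 0.23 and 0.32 in LKO 1, 2 and 3, and between -0.21 and 0.26 in the controls. Of 7 tested markers of T and NK cells 4 were higher, with medians of 0.01, 0.11 and -0.12 in LKO, and Cd8a did not rise well above background in any mouse. Of 3 tested markers of plasmacytoid dendritic cells, a main source of type I interferon, 1 was higher, with medians of 0.10, -0.19 and 0.09. Of 4 tested neutrophil markers 3 were higher, with medians of 0.78, 1.76 and 2.63 in LKO, while Cxcr2 and Ngp did not rise well above background in any mouse. The 18 acute phase genes, all higher in LKO, had 0.36, 0.99 and 1.38 in LKO 1, 2 and 3 and between -0.17 and 0.15 in the controls, with 0 passing over all genes. Hepatocyte markers had 0.05, 0.16 and 0.09 in LKO 1, 2 and 3, and endothelial markers lay between -0.01 and 0.02. Of 5 dendritic cell markers 2 were tested, with medians of -0.35, -0.08 and 0.53. Of 5 B and plasma cell markers 3 were tested, with medians of 0.30, 0.22 and -0.70. Xcr1 of the dendritic cell list and Cd79a of the B cell list did not rise well above background in any mouse. By these medians LKO 3 was the highest LKO mouse in the acute phase, neutrophil, macrophage and dendritic cell lists. LKO 1 was the highest in the plasmacytoid dendritic cell, endothelial and B cell lists, and LKO 2 in the hepatocyte and T and NK cell lists. Gene by gene, the median step from LKO 1 to LKO 2 was 0.01 in hepatocyte and 0.11 in T and NK cell markers, against 0.69 in type I members. The LKO medians of the T and NK cell and endothelial lists lay within those of the controls (-0.25 to 0.17 and -0.07 to 0.09). Siglech, Cd4 and Csf3r, chosen after their values were seen, were bright for markers of single immune cell types. Their scaled signals ran from 107 to 130, from 54.3 to 77.9 and from 59.4 to 71.6 across the arrays. Whether the marker probes report only the named cells was not tested. The part of these cells or of the acute phase genes in the values of the members was not tested.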

How the data were processed

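Liver RNA of 3 control and 3 LKO mice was measured on one-colour Agilent arrays, 1 slide and 1 scan. The deposited files come from Agilent's Feature Extraction software, version 11.5.1.1 per the file headers, and hold signal intensities (background-corrected processed signal, and raw median foreground and background) and quality flags. The authors' value table holds these intensities times 1 constant per array, between 2.08 and 2.48.

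Control spots and outlier spots were left out. Processed signals were divided by the 75th percentile of their array and taken to log2. Accessions were matched to RefSeq (GRCm38.p6), which named 32994 of 56605 probes, and a gene took its probe with the highest mean. Genes entered the test if all 3 mice of either group had a signal well above background. The test was lmFit and eBayes of limma 3.58.1 (R 4.3.3), two-sided, Benjamini-Hochberg over 14171 genes, threshold 0.05. Intervals of 95% are unadjusted. The fit was tested on simulated data. Alternatives were other scalings (quantile, median, normexp on median signals, the authors' table), filters, probe rules, a trend, the replicate number or slide column in the model, and leaving out each mouse.

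Members and lists were chosen with earlier results of these data known. Values on every array are given for the 2 members with the smallest p in each role group and for members that passed, whose groups did not overlap, or that were above background in 1 group alone. From each list of other interferon pathway genes the 2 with the smallest p and those without overlap are named. Marker and acute phase lists are given as counts and medians, with markers not well above background on any array named. Other genes outside this rule are marked as chosen after their values were seen. An item withheld from the text is not reported here.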

Additional observations from a re-analysis of the deposited data

How the results depend on the processing

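Under 16 alternatives 0 members passed, and 0 of the other interferon genes did; the lowest adjusted p of a member was 0.125 (Trim30a, without LKO 1, limma). Genes called over all 14171 numbered 2, and became 16 with normexp, 13 with trend and robust eBayes, and 1 to 9 with a mouse left out. Over other sets of genes tested, the count was 1 of 22911 without a filter on dim probes. It was 1 of 13665 with probes above background on all 6 arrays. With a mouse left out, 5 to 20 members were higher, and the members' median lay between -0.21 and 0.13. With the slide column 3 were higher, at a median of -0.31, and Irf9 (-0.21), Ddx58 (-0.10), Dhx58 (-0.20) and Oas1a (-0.20) reversed. The mean of all probes reversed Stat2 (0.029) and Ddx58 (-0.064). Leaving out a mouse gave Stat2 -0.091 to 0.14, Ifit3 -0.42 to 0.072, Irf9 -0.018 to 0.33, Ddx58 -0.021 to 0.13 and Dhx58 -0.18 to 0.26, and the causes were not tested. With their sign kept, Ifit1 ran from -0.56 to -0.043, Gbp3 from -0.35 to -0.096, Oas1a from 0.064 to 0.38 and Bst2 from 0.085 to 0.26. In all, 17 of 28 members changed sign in some setting. In 5 other scalings or probe choices, added after the data were seen, LKO 2 stayed above LKO 1 in 28 members; it was the highest mouse in 17 to 19 and LKO 1 the lowest in 15 to 20. Replicate numbers did not pair the mice (correlation of deviations 0.04, -0.05 and -0.07 for numbers 1, 2 and 3). With the replicate number as a block 3 genes passed over all genes and 0 members, and the members' median was -0.02. The number of arrays limits the precision, and p-values measure the spread between these mice.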

Other observations

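Further genes outside the members, chosen after their values were seen, also differed widely between LKO mice. Usp18, which removes Isg15 from proteins and restrains the type I receptor, had scaled signals of 2.38, 1.80 and 1.69 in controls and 1.46, 2.97 and 1.44 in LKO, so LKO 2 was the highest of the 6 mice and the other LKO mice the lowest. Zbp1, a nucleic acid sensor, had 2.05, 2.12 and 1.56 in controls and 2.08, 4.57 and 2.55 in LKO, again with LKO 2 at the top. Irf1, a target of interferon gamma, had 6.69, 9.42 and 8.21 in controls and 6.44, 13.9 and 13.3 in LKO, where LKO 2 and LKO 3 were alike. Cxcl10, a chemokine gene, had 2.46, 2.15 and 1.63 in controls and 1.30, 2.66 and 4.00 in LKO, and Socs3, which cytokines of the acute phase induce, had 0.864, 4.63 and 1.86 in controls and 1.23, 4.17 and 6.04 in LKO. In these last 2 genes LKO 3 was the highest mouse.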
